A study of Arabidopsis thaliana with 6 samples.

Results

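The 4 genes described here encode proteins that bind actin filaments. They were taken as the probe sets that the platform annotation pairs with a single gene among AT1G59910 (formin homology), AT5G55400 (a fimbrin), PLIM2a (AT2G45800, a LIM-domain protein) and NET2D (AT2G22560, of the NETWORKED family). All 4 were found, among 13356 genes that had a probe set of their own on the array. Their probe sets were 262901_at, 248082_at, 266918_at and 264053_at. Transcripts were measured on Affymetrix ATH1 arrays, on which labelled cRNA of 1 sample is hybridised to short oligonucleotide probes. The 3 stages, with 2 arrays each, all came from Arabidopsis thaliana ecotype Columbia plants 50 days old, for which the labels name no transgene or mutation. Dry mature pollen was taken by vacuum from open flowers. Hydrated pollen was washed off flowers into a medium with 15% sucrose, pelleted and kept moist at 25 °C for 45 min. Pollen tubes were grown in the same medium for 4 h to a length near 150 µm and caught on a 50 µm mesh. Dry collection, washing and sieving thus differ between the stages together with hydration and growth, and their parts cannot be told apart. The design text calls the replicates biological, without saying whether they came from separate batches of plants.

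A pollen tube is a single cell that elongates at its tip, and its growth depends on actin. Long actin cables in the shank carry secretory vesicles forward, while a finer and quickly renewed array near the tip directs where they fuse. Formins start new filaments and lengthen them at the fast-growing end. Fimbrins and LIM-domain proteins tie filaments into bundles. NET proteins attach actin to membranes, and members of the NET2 class are known from pollen tubes.

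Cell type markers were read on the arrays as a description of the samples. Their lists were chosen with earlier results of these data known, so they do not check the labels independently. Of 8 listed markers of the vegetative cell, the cell that forms the tube, 7 were named on the array, and all 7 lay above the 60th percentile of signal, taken here as the limit of background, on every array. Their summed signal was 43424.6 to 49748.9 in mature pollen, 40517.8 to 48039.6 after hydration and 33325.5 to 43154.9 in tubes, most of it from AT5G45880. Singly they differed. The MADS-box factors AGL18 (-2.29 ± 0.29 on the log2 scale, limma adjusted p = 0.000633) and AGL66 (-1.90 ± 0.37, 0.00995) fell in tubes against mature pollen. The other 5 did not pass there, from -0.28 for AT5G45880 to 0.90 for the receptor kinase ANX1 (limma adjusted p = 0.0888). Against hydrated pollen AGL18 alone of the 7 passed (-1.53, limma adjusted p = 0.0128), and it did not pass there without any 1 tube or hydrated array (0.0877 to 0.129). AGL66 did not pass without mature array 1 (limma adjusted p = 0.0631) or tube array 1 (0.0852) or 2 (0.0944), and none of the 3 passed without the intensity trend in the fit. The sperm histone MGH3 read 2442.5 and 1430.7 in mature pollen, 2343.1 and 1316.2 after hydration and 1362.3 and 886.1 in tubes. Of 17 listed markers of photosynthesis, tapetum and floral organs, 6 were named, and the highest of them on any array read 50.8. Of these only the floral genes SPT in tubes (50.8 and 25.6) and SWEET9 in mature pollen (48.8 and 25.8) lay above the 60th percentile on both arrays of a stage. SPT was 1.83 ± 1.00 higher in tubes than in hydrated pollen and did not pass (limma adjusted p = 0.462). It entered the test only through the tube arrays, and its hydrated values (7.1 and 14.5) were at background. Taken from the 60th percentiles of the hydrated arrays instead, the rise came to 1.42-fold. The part of other tissue in the results was not tested. In such bulk samples, less RNA per cell and fewer cells of a kind cannot be told apart. Array medians ranged from 14 to 24.4 and the 60th percentiles from 19.7 to 34.1, in arbitrary signal units.

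Against mature pollen, AT1G59910 rose at hydration and in tubes, and AT5G55400 rose in tubes against both pollen stages. The PLIM2a signal was lowest in tubes and that of NET2D lowest in hydrated pollen, but no change of either passed. Courses were not tested against each other. All 4 lay above the 60th percentile on all 6 arrays. The signal of different probe sets is not on a common scale, so only changes within a gene are compared below. Changes are log2 values ± SE from limma, fitted over all 11412 probe sets that passed the filter on low signal, with Benjamini-Hochberg adjusted p-values over all of them. An adjusted p under 0.05 is a pass.

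**Figure D1:**
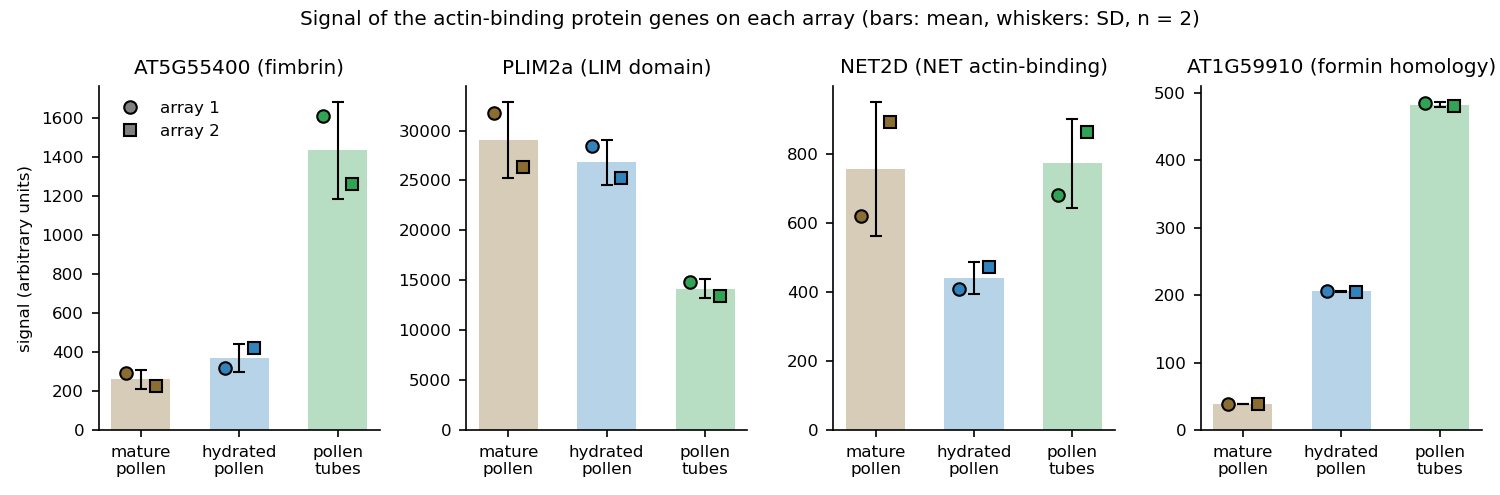
Signal of each gene in arbitrary units on each array, by stage from mature pollen to tubes. Points are the 2 arrays, bars their mean and whiskers the SD. The AT1G59910 points lie almost on top of each other in every stage, those of AT5G55400 in tubes stand far above both pollen stages, those of PLIM2a in tubes lie below both, and those of NET2D are lowest in hydrated pollen.

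AT1G59910, the formin homology gene, read 39.0 and 38.8 in mature pollen, 206.3 and 204.4 after hydration and 484.6 and 480.1 in tubes. The stages did not overlap at either step. The mature values lay just above their arrays' 60th percentiles of 34.1 and 25.1, so the level there was close to background. The gene rose in hydrated pollen, at a mean of 205.35 ± 1.34 against 38.9 ± 0.14 in mature pollen (SD, n = 2 arrays), by 2.40 ± 0.36 or 5.28-fold (limma adjusted p = 0.0142). It also rose in tubes, at 482.35 ± 3.18, against mature pollen, by 3.63 ± 0.36 or 12.4-fold (limma adjusted p = 0.000165). Of that whole change on the log2 scale, 66.1% was present in hydrated pollen. The tube step by itself, 1.23 ± 0.36 or 2.35-fold over hydrated pollen, did not pass (limma adjusted p = 0.0967), with a 95% interval from 0.43 to 2.04.

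The rise in tubes against mature pollen passed under each of the 13 other settings, leaving out any array included. The rise at hydration did not pass without the intensity trend (adjusted p = 0.216), nor in limma without hydrated array 1 (0.156), hydrated array 2 (0.174), tube array 1 (0.0641) or tube array 2 (0.0587), while its value lay between 2.39 and 2.41 as arrays were left out. The 2 arrays of a stage differed by 0.00742 to 0.0135 on the log2 scale for this gene. Of the tested probe sets, 0.587% in mature pollen, 1.19% after hydration and 1.18% in tubes had a smaller difference, and the median difference was 0.711, 0.612 and 0.655. The SE of 0.36 therefore comes mainly from the spread that limma borrows from other probe sets.

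AT5G55400, the fimbrin gene, read 293.2 and 226.8 in mature pollen, 320.5 and 422.6 after hydration and 1609.4 and 1260.3 in tubes. Both tube arrays stood well above all 4 pollen arrays. In tubes it rose 5.52-fold over mature pollen, with means of 1434.85 ± 246.9 and 260 ± 46.95 (SD, n = 2 arrays), a change of 2.47 ± 0.33 (limma adjusted p = 0.000937). Over hydrated pollen, at 371.55 ± 72.2, the rise was 3.87-fold, 1.95 ± 0.33 (95% interval on the log2 scale 1.22 to 2.68, limma adjusted p = 0.0073). The hydrated arrays lay above the mature arrays, but the change of 0.51 ± 0.33 did not pass (limma adjusted p = 0.904), and it came to 0.13 between the arrays numbered 1 and to 0.90 between those numbered 2. Hydrated pollen had 20.8% of the whole log2 change, against 66.1% for AT1G59910. The difference between these shares was not tested.

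In limma the fimbrin's rise over hydrated pollen did not pass without tube array 1 (1.78, adjusted p = 0.136), tube array 2 (2.13, 0.0579) or hydrated array 1 (1.75, 0.0931), nor without the intensity trend (0.165). The rise over mature pollen passed without any array, with adjusted p from 0.00299 to 0.0317, and did not pass without the intensity trend (0.0628).

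PLIM2a, whose protein bundles actin and belongs to a LIM class of pollen, was very bright in dry pollen. It read 31719.1 and 26376.5 in mature pollen, 28430 and 25214.9 after hydration and 14833.6 and 13476.1 in tubes. Both tube arrays lay below all 4 pollen arrays, and the mature and hydrated arrays overlapped. In tubes the mean of 14154.8 ± 959.9 compares with 29047.8 ± 3778 in mature pollen, a change of -1.03 ± 0.31 (limma adjusted p = 0.0749), and with 26822.4 ± 2273 in hydrated pollen, a change of -0.92 ± 0.31 (limma adjusted p = 0.152). Neither passed. The 95% intervals, -1.72 to -0.35 and -1.60 to -0.24, hold for 1 probe set and do not allow for the many tested. Between hydrated and mature pollen the change was -0.11 ± 0.31 (limma adjusted p = 0.993, interval -0.79 to 0.57).

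Several measures lie beside the lower PLIM2a signal in tubes. The brightest probe set of an array read 38246.7 and 26820.4 in tubes, 40414.8 and 37295.5 in hydrated pollen, and 43798.8 and 38711 in mature pollen. After quantile normalization, which gives all arrays the same distribution, the change in tubes was -0.66 against mature pollen and -0.55 against hydrated pollen (limma adjusted p = 0.139 and 0.294). The change against mature pollen passed with a floor at the 60th percentile (adjusted p = 0.0259) and with 16 added before log2 (0.0287). Of the 7 vegetative cell markers, 2 fell and 5 did not pass in tubes against mature pollen, as given above. The part of the array range, of saturation or of the vegetative cell markers in the PLIM2a values was not tested.

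NET2D, of the NET class known from pollen tubes, had about the same signal in tubes as in mature pollen, with a dip between. It read 620.6 and 894 in mature pollen, 409 and 473.1 after hydration and 682.7 and 864.5 in tubes. Both hydrated arrays lay below all 4 others, and the tube and mature arrays overlapped. In hydrated pollen the mean of 441.05 ± 45.33 compares with 757.3 ± 193.3 in mature pollen, a change of -0.76 ± 0.32 (limma adjusted p = 0.786). In tubes the mean of 773.6 ± 128.6 lay 0.80 ± 0.32 above hydrated pollen (limma adjusted p = 0.257) and 0.04 ± 0.32 above mature pollen (limma adjusted p = 0.964, interval -0.67 to 0.76), or -0.034 after quantile normalization and -0.22 without mature array 1. None of the 3 changes passed.

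**Figure D2:**
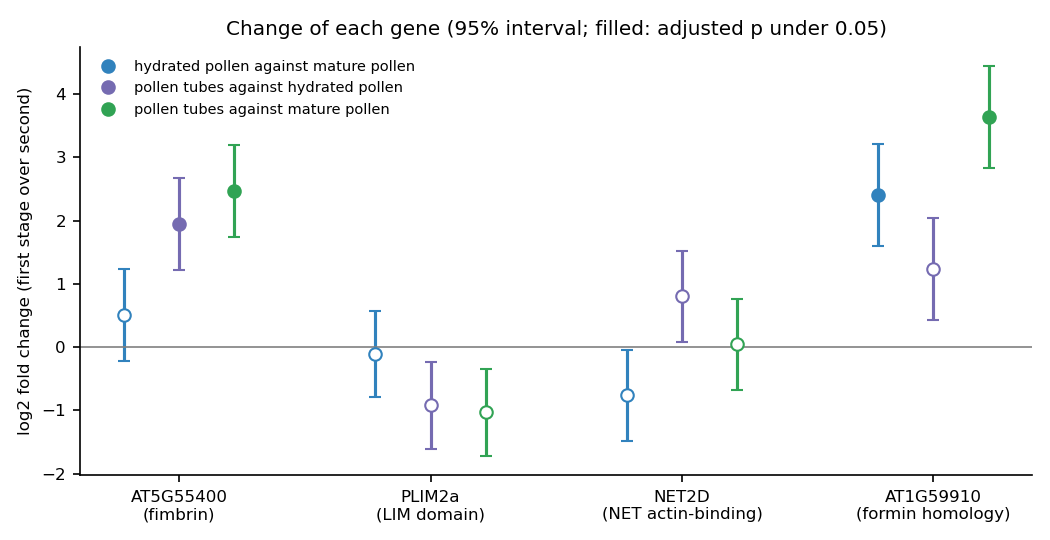
Log2 change of each gene in the 3 comparisons, first-named stage over the second, with the 95% interval of the limma fit. Filled points have an adjusted p under 0.05. They are AT1G59910 at hydration (2.40) and for tubes over mature pollen (3.63), and AT5G55400 for tubes over hydrated (1.95) and mature pollen (2.47).

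Between hydrated pollen and tubes, 1 of the 4 genes rose and 0 fell, while 4.57% of all tested probe sets passed there, 2.54% upward and 2.03% downward. Before adjustment, 3 were higher and 1 lower at p under 0.05 in limma. The arrays of the 2 stages stood apart for all 4 genes, as they did for 43.1% of tested probe sets. Between mature pollen and tubes 2 genes rose and 0 fell, beside 7.9% of tested probe sets, 4.61% upward and 3.29% downward, and 1 more was lower before adjustment in limma. Over the array that is 526 rises and 375 falls, or 443 and 198 when the arrays were scaled to a common 75th percentile. There 3 of the 4 genes stood apart, 2 higher and 1 lower, beside 46% of tested probe sets, 20.8% higher and 25.2% lower. At hydration 1 gene rose and 0 fell, beside 0.526% and 0.0526% of tested probe sets (0.578% in all), with 1 more lower before adjustment in limma. The stages stood apart for 3 of the 4 genes, 2 higher and 1 lower in hydrated pollen, beside 33.6% of tested probe sets, 15.7% higher and 18% lower. The tube comparisons share the tube arrays, and both comparisons with mature pollen share the mature arrays, so these counts are not independent.

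Around these 4 genes, a list of 106 other genes of the actin cytoskeleton was followed: actins, profilins, depolymerising factors, bundlers, formins, NET proteins, nucleating complexes and myosins. Only 32 had a probe set named for them alone, and 20 passed the filter. No profilin, depolymerising factor, villin or capping protein was among them, so nothing is said of those here. Of the 20, 1 rose and 0 fell in tubes against hydrated pollen in limma, beside 2.54% and 2.03% of all tested probe sets. Before adjustment 4 were higher and 0 lower, and the median change was 0.05 beside -0.06 for all tested probe sets. In tubes against mature pollen 2 rose and 0 fell (3 and 3 before adjustment), beside 4.61% and 3.29%, with a median of -0.23 beside -0.12. At hydration 0 rose and 0 fell (0 and 0 before adjustment), beside 0.526% and 0.0526%, with a median of -0.23 beside -0.02. The count in tubes against hydrated pollen was 0 without hydrated array 2 or tube array 1 and 2 without either mature array, and the count against mature pollen was 1 without either tube array. The arrays of both stages stood apart in 5 genes higher and 6 lower in tubes than in hydrated pollen, beside 20% and 23.1% of all tested probe sets. At hydration they stood apart in 0 genes higher and 7 lower in hydrated pollen, beside 15.7% and 18%, and none of the 7 passed.

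WLIM2a, a LIM protein of the class found in most plant tissues, rose in tubes, where PLIM2a had its lowest values. It read 216.7 and 286.2 in mature pollen, 299.2 and 225.2 after hydration and 1424.1 and 1108.8 in tubes. The tube arrays stood apart from the 4 pollen arrays, which overlapped each other. WLIM2a rose in tubes 4.84-fold over hydrated pollen (2.28 ± 0.34, limma adjusted p = 0.00389) and 5.05-fold over mature pollen (2.34 ± 0.34, limma adjusted p = 0.00158), and at hydration it gave 0.06 (0.997), or -0.045 after quantile normalization. The rise over hydrated pollen did not pass in limma without hydrated array 2 (2.07, adjusted p = 0.0537) or tube array 1 (2.09, 0.0942), nor without the trend (0.128). The rise over mature pollen did not pass without the trend (0.0711).

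The other LIM genes gave smaller values. PLIM2b, the pollen-class relative of PLIM2a, differed in tubes by -0.36 ± 0.34 from hydrated and -0.19 ± 0.34 from mature pollen (limma adjusted p = 0.747 and 0.844), and by 0.052 and 0.20 after quantile normalization. Its arrays spread widely within a stage, 6683.3 and 10866.7 in mature pollen for example. WLIM2b lay between 246 and 378.6 on every array. WLIM1 reached 80.1 on tube array 1 and 17.6 or less on the other 5 arrays.

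No other tested formin of the list passed in any of the 3 comparisons. Of 17 other listed formins, only 7 had a probe set named for them alone, so nothing is said of the rest. Of the 7, AT5G48360 and AT3G07540 stayed below the 60th percentile on all arrays, with signals of 0.9 to 14.2. The 5 tested ones were dim. AT5G58160 read 61.9 and 50.8 in mature pollen, 70.1 and 14.4 after hydration and 68.3 and 102.5 in tubes, a change in tubes of 0.58 against mature pollen (limma adjusted p = 0.758). The other 4 ranged from -0.81 for AT3G05470 to -0.09 for AT3G32400 in the same comparison, the last at 0.058 after quantile normalization and at 1.11 without mature array 2. Whether AT1G59910 differed from them was not tested. Of 4 other listed fimbrins, only AT5G48460 and AT2G04750 had a probe set named for them alone, so nothing is said of the rest. Both were at background throughout, with highest signals of 18.7 and 30.4.

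Among NET genes, NET4B, of a class tied to the vacuole membrane, rose in tubes. It read 41 and 15.7 in mature pollen, 40.7 and 50 after hydration and 201 and 195.2 in tubes. Tubes stood apart from both pollen stages, and 1 mature array was below its 60th percentile. The change in tubes was 2.96 ± 0.57 against mature pollen (limma adjusted p = 0.00946) and 2.13 ± 0.57 against hydrated pollen (0.0663). The first was 3.66 without mature array 1 and 2.27 without mature array 2, and it passed in both. Without tube array 1 it gave an adjusted p of 0.0889 and without tube array 2 of 0.0734, and it was at 0.0784 without the trend. The change against hydrated pollen passed in limma without mature array 1 (0.023) or 2 (0.0172), with the floor (0.00575) and with 16 added (0.0171).

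NET2C, of the same class as NET2D, had a similar dip. It read 1349.2 and 835.8 in mature pollen, 799.6 and 611.5 after hydration and 1233.3 and 1337.6 in tubes, with a change of -0.60 ± 0.33 at hydration and of 0.88 ± 0.33 in tubes over hydrated pollen (limma adjusted p = 0.876 and 0.215). Neither passed. The 4 NET1 genes on the array stayed at background, at 22.1 or less.

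**Figure D3:**
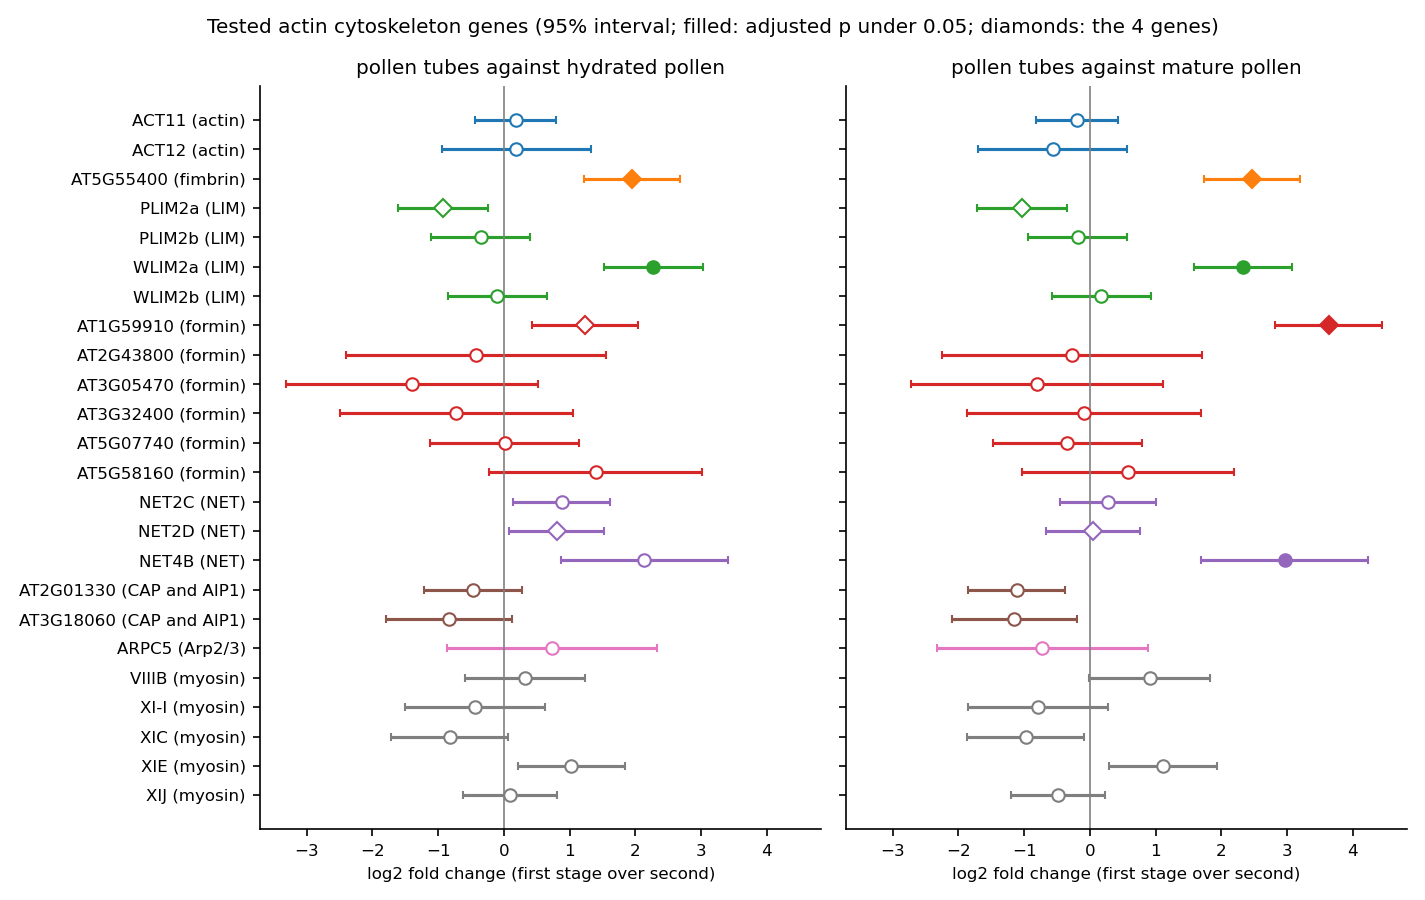
Log2 change of the 24 tested actin cytoskeleton genes in tubes against hydrated pollen (left) and against mature pollen (right), with 95% intervals, coloured by family. Diamonds mark the 4 genes and filled points an adjusted p under 0.05. WLIM2a and AT5G55400 are filled on both sides, and AT1G59910 and NET4B on the right.

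Only 2 of 8 listed actins and 5 of 15 listed myosins were tested, and none of these passed. ACT11 read 3275.9 and 3217.6 in mature pollen, 2326.5 and 2687.6 after hydration and 3021.3 and 2656.5 in tubes. Its change in tubes was -0.20 ± 0.28 against mature pollen (limma adjusted p = 0.786), and 0.011 after quantile normalization. ACT12 was more variable between arrays of a stage, with array 2 the higher in every stage. It read 3276.5 and 6500.7 in mature pollen, 1673.7 and 4472.3 after hydration and 2262.8 and 4302.4 in tubes. In tubes against mature pollen it changed by -0.56 ± 0.51 (limma adjusted p = 0.639). That change was -0.53 between the arrays numbered 1 and -0.60 between those numbered 2. ACT11 and ACT12 are both actins of the reproductive class.

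Of 5 tested myosins, which pull vesicles and organelles along actin, XIE was the highest in tubes relative to pollen, at 261.5 and 370.9 against 133.5 and 155.3 in mature pollen, a change of 1.11 ± 0.37 that did not pass (limma adjusted p = 0.112). XIC gave -0.97 ± 0.40 (0.213). VIIIB gave 0.91 ± 0.41 (0.272), or 1.58 without mature array 1 (limma adjusted p = 0.0347) and 0.24 without mature array 2 (0.76), while XIJ at -0.49 and XI-I at -0.78 did not pass. The actin-interacting protein genes AT2G01330 and AT3G18060, whose products help take filaments apart, were lower in tubes than in mature pollen on every array, by -1.12 ± 0.34 and -1.15 ± 0.43, and neither passed (limma adjusted p = 0.0782 and 0.167). ARPC5, a subunit of the Arp2/3 complex that branches filaments, read 62.5 and 28.2 in tubes against 112.3 and 42.7 in mature pollen (adjusted p = 0.681).

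The genes with the most similar course were found by the distance between log2 profiles over the 6 arrays, each centred on its own mean, among 6507 tested probe sets with 1 gene. For AT1G59910 they were SRC2, a C2-domain protein (distance 0.592, Pearson r = 0.987), AT1G72800 (0.673, 0.989) and AT2G17660 (0.721, 0.991). SRC2 averaged 918.2 in mature pollen, 5545.05 after hydration and 10622.4 in tubes. For AT5G55400 they were AT1G20270 (distance 0.59, r = 0.975), AT1G11940 (0.598, 0.995) and TUB7, a beta-tubulin of microtubules (0.692, 0.976), which averaged 57.25 in mature pollen, 91.45 after hydration and 404.15 in tubes.

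The closest neighbours of PLIM2a were AT5G25860 (distance 0.155, r = 0.993), the myosin XIC (0.161, 0.991) and the transcription factor BPC1 (0.188, 0.988). XIC averaged 155.95 in mature pollen, 140.4 after hydration and 78.95 in tubes. For NET2D they were AT2G40420 (distance 0.245, r = 0.972), the expansin EXPA7 (0.287, 0.96) and the MADS-box factor AGL104 (0.33, 0.967), the last at 1070.85 in mature pollen, 673.4 after hydration and 996.25 in tubes. Some neighbours were near or below background in a stage. AT1G20270 averaged 17.2 in mature pollen, AT1G72800 28.35 in mature pollen and AT5G25860 28.4 in tubes. Distance grows with the size of a gene's changes, so smaller distances for PLIM2a do not show a closer likeness. Its neighbours' r, 0.988 to 0.993, overlapped those for AT5G55400 (0.975 to 0.995) and AT1G59910 (0.987 to 0.991). The likenesses to all these neighbours are descriptions over the same 6 arrays, picked from many candidates, and carry no test.

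**Figure D4:**
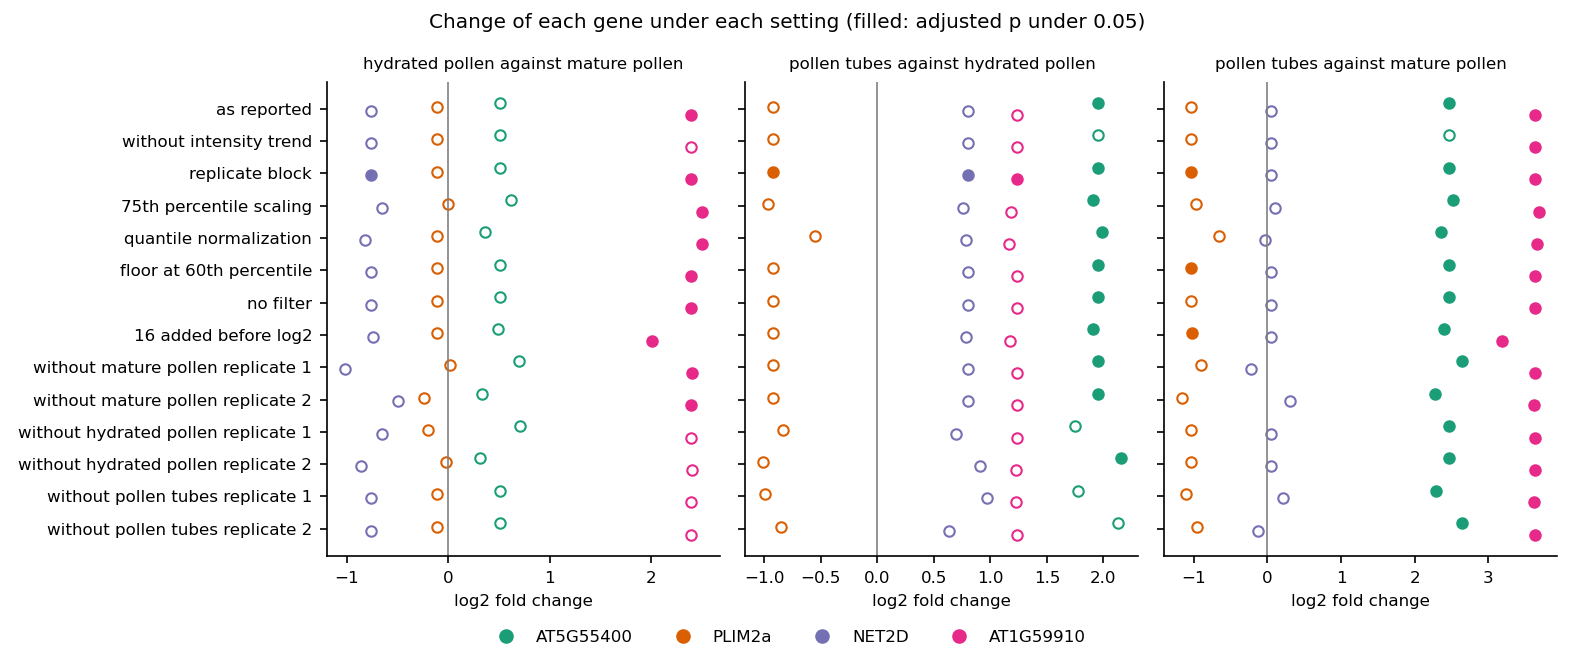
Log2 change of each gene in the 3 comparisons as reported (top row) and under each other setting (other rows), filled where the adjusted p was under 0.05. AT1G59910 is filled in every row for tubes against mature pollen. The PLIM2a points for tubes move nearer to 0 after quantile normalization.

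**Figure D5:**
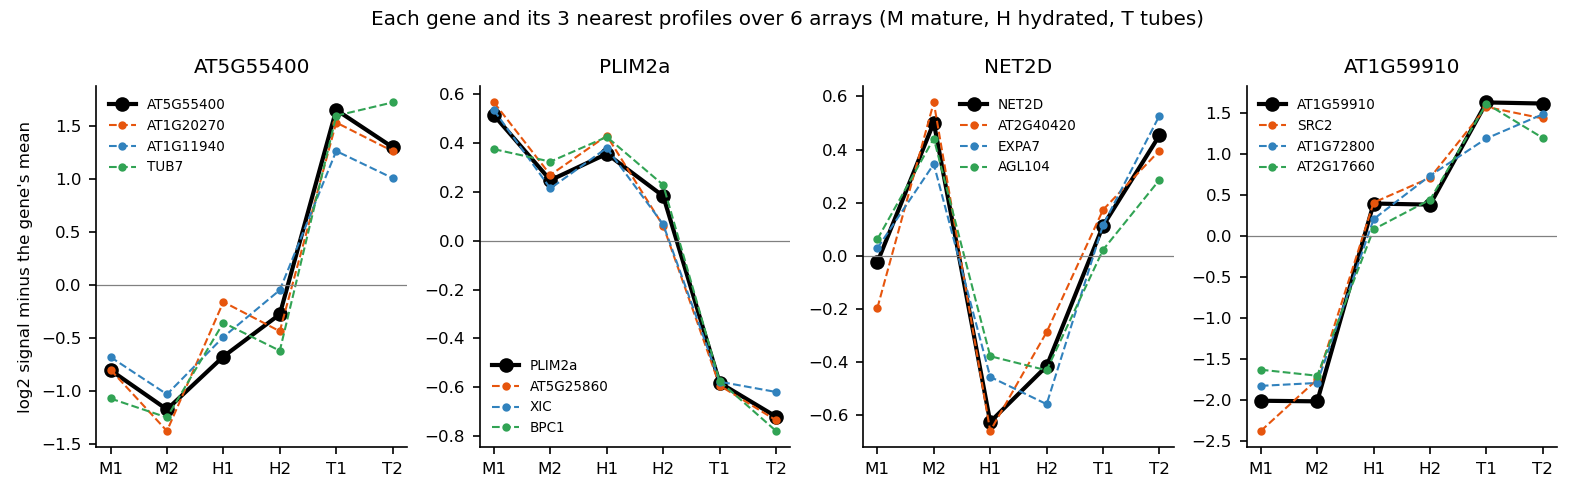
Log2 signal minus each gene's own mean on the 6 arrays (M mature, H hydrated, T tubes, with the replicate number), for each of the 4 genes in black and its 3 nearest profiles in colour. Lines only guide the eye. The profile of AT1G59910 steps up at both changes of stage, that of AT5G55400 mainly in tubes, that of PLIM2a steps down in tubes, and that of NET2D is lowest in hydrated pollen.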

How the data were processed

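The deposited values are linear signal intensity, 1 per probe set and array. They were made by the authors with GCOS 1.0 and MAS5, per the submitters' processing notes. After dropping 2% of the probe sets at either end, array means lay between 100.023 and 100.029, which shows scaling to a common target. Detection calls were not used here. No background or normalization step was added.

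Of 22810 probe sets, 64 controls were left out. Values under 0.1 (1 value) were set to 0.1 before log2. Testing required a signal over the 60th percentile of the array on 2 or more of the 6 arrays. Limma 3.58.1 in R 4.3.3 fitted 1 mean per stage over all 6 arrays (3 residual degrees of freedom), with an intensity trend, two-sided. The script was tested on simulated data. Names are those of the platform annotation with symbols from the TAIR10.1 gene table: 13513 probe sets had 1 gene, 503 several, and 8730 were unnamed here. No source used here gives the array's genome build, so no coordinates or sequences were used. Signal from related genes was not tested.

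The genes and lists were chosen with earlier results of these data known. The genes named are the 4 genes, tested single-gene probe sets of the actin cytoskeleton list, and the 3 nearest profiles of each of the 4. Untested listed genes and the cell type markers were named after their values were seen, and alternatives for AGL18 and AGL66 were added after seeing the data. Alternatives were no trend, a replicate block, 75th percentile and quantile scaling, a floor at the 60th percentile, no filter, 16 added before log2, and leaving out each array. Precision is limited by having 2 arrays per stage, and p-values measure only the spread between these arrays.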

Additional observations from a re-analysis of the deposited data

How the results depend on the processing

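AT1G59910 in tubes against mature pollen passed under all 13 alternatives (3.18 to 3.69). Without the intensity trend no other change of an actin gene passed in limma. AT5G55400 was at 1.95 (adjusted p = 0.165) and 2.47 (0.0628) in tubes over hydrated and mature pollen, AT1G59910 was at 2.40 (0.216) at hydration, and 0 other actin genes rose in either tube comparison. No probe set passed in limma without the trend for tubes against hydrated pollen or at hydration (1494 and 731 at unadjusted p under 0.05), and 180 rose and 48 fell in tubes against mature pollen. In the order tubes against hydrated, tubes against mature, and hydrated against mature pollen, counts over the array were 500 up and 370 down, 650 and 459, and 87 and 16 with the floor, and 194 and 107, 443 and 198, and 45 and 1 with 75th percentile scaling. At hydration 2 fell after quantile normalization. With single arrays left out these counts were 51 to 371 up and 34 to 289 down, 217 to 491 and 132 to 280, and 25 to 84 and 1 to 6, lowest in both tube comparisons without tube array 1. As arrays were left out, AT5G55400 ranged from 1.75 to 2.15 in tubes over hydrated pollen, with 3 of 6 passing, and AT1G59910 from 2.39 to 2.41 at hydration, with 2 of 6 passing. Counts of other rising actin genes ranged from 0 to 2 and from 1 to 3 in tubes over hydrated and mature pollen. With the floor, or with 16 added, PLIM2a passed in tubes against mature pollen (-1.03 in each) and 2 other actin genes rose over hydrated pollen. The cause was not tested.

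The replicate numbers are shared by the stages, but no label states a pairing. Deviations of same-numbered arrays from their stage means correlated at 0.174 to 0.221 over probe sets. With the replicate block, PLIM2a passed in tubes against hydrated (-0.92, limma adjusted p = 0.0024) and mature pollen (-1.03, 0.000691), AT1G59910 in tubes over hydrated pollen (1.23, 0.00486), and NET2D in tubes over hydrated pollen (0.80, 0.00766) and at hydration (-0.76, 0.0377). Of the other actin genes, 4 then rose in each tube comparison, 4 fell against mature pollen and 1 fell at hydration. Over the array 775 rose and 871 fell in tubes against hydrated pollen with the block, 1127 and 1032 in tubes against mature pollen, and 293 and 128 at hydration, beside 290 and 232, 526 and 375, and 60 and 6 without it.

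Signs turned only for changes that had not passed. After quantile normalization these were PLIM2b in tubes against hydrated (0.052) and mature pollen (0.20), and in tubes against mature pollen ACT11 (0.011), AT3G32400 (0.058) and NET2D (-0.034), and at hydration WLIM2a (-0.045). As arrays were left out, tubes against mature pollen gave -0.54 to 0.17 for PLIM2b, -1.29 to 1.11 for AT3G32400 and -0.22 to 0.31 for NET2D, and hydration gave -0.15 to 0.26 for WLIM2a and -0.24 to 0.022 for PLIM2a. Over all 60 changes of other actin genes, 19 turned sign under some alternative, and none of these had passed. Scaling to the 75th percentile moved the median of all probe sets at hydration to 0.0846, against -0.02. By Pearson's r in place of distance, 1 of the 3 nearest profiles was shared for AT5G55400 and for NET2D, and 0 for PLIM2a and AT1G59910. Signals near background, and listed formins without a named probe set, limit what can be said of the other formins.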
